A study of Mus musculus with 24 samples.

Results

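CTCF and the cohesin complex were followed at the transcript level in differentiating mouse brite adipocytes after knockdown of the long noncoding RNA Ctcflos, whose gene overlaps the gene of the CTCF paralog Ctcfl. The 10 members were Ctcf, Ctcfl, Smc1a, Smc3, Rad21, Stag1, Stag2, Nipbl, Pds5a and Pds5b, chosen by symbol among 52089 symbols of the deposited table. The table held 110 transcript entries for them, and each member was represented by its RefSeq entry with the highest mean RPKM (reads mapped to an entry, divided by its length in kilobases and by the library depth). Of the 10 members, 9 had enough reads for a fit and Ctcfl did not.

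Primary preadipocytes came from the stromal vascular fraction of inguinal white fat of 129SvEv mice, were induced and then differentiated with rosiglitazone, and are therefore white-fat cells driven towards the heat-producing brite state. Both arms received an LNA gapmer at 50 nM by reverse transfection, that is, a short DNA strand with modified ends through which RNase H cleaves the matching RNA. It matched Ctcflos in the knockdown (KD) and no target in the control (NC). Cells were taken at 24 h and at 72 h, which gives 4 groups of 6 libraries, each sequenced from the 3′ ends of transcripts. All groups share the strain, rosiglitazone and transfection, and the labels do not say which of the study's Ctcflos gapmers a KD library received. They also do not say whether libraries of a group came from separate mice or cultures. A caption of the paper calls its 6 replicates biological without saying whether they are mice or cultures. The p-values thus measure only the spread between these samples.

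CTCF is a zinc finger protein that binds DNA and halts loop extrusion. Cohesin is the ring that extrudes the loops and holds sister chromatids together. SMC1A and SMC3 form its long arms, RAD21 closes the ring, and STAG1 or STAG2 binds RAD21 as the alternative HEAT-repeat subunit. NIPBL loads and activates the ring, whereas PDS5A and PDS5B bind it and act with WAPL in its release. CTCFL (BORIS) is a paralog of CTCF known mainly from the male germ line.

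Depth ranged from 1391829 to 5423828 mapped reads over 23 libraries. In the other one, NC 72 h replicate 6, 5926362 read steps were found, of which 2 may stand for 1 read. NC 72 h replicates 2 and 3 differed by less than the sampling noise and were counted as 1 sample, which left n = 5 in NC 72 h and 23 samples. Deviations from the group means separated 15 samples, called the larger cluster, from 8, called the smaller cluster, which held replicates 3 and 4 of KD 24 h, 5 and 6 of NC 24 h, 5 and 6 of KD 72 h, and 4 and 5 of NC 72 h. This split was drawn from the expression of these same samples. Values within a cluster are thus a description and no independent check, and p-values within a cluster do not allow for the split. KD 24 h replicates 1 and 6 had the highest values on the first principal component of these deviations, which held 31.1% of their variance, and replicate 6 was the shallowest library. Ctcflos itself is listed under 1300015D01Rik with 6 entries. The one with the highest mean RPKM, of 917 bases, which the study names as transcript 3, reached 0.723 to 3.01 scaled RPKM in NC 24 h and 0 to 0.895 in KD 24 h. It reached 1.61 to 4.11 in NC 72 h and 0 to 0.848 in KD 72 h, so that the groups overlapped at 24 h and did not at 72 h. The paper states that its global transcriptome work centred on transcript 1, and its heat maps at both times compare a gapmer matching transcript 1 with the control. The cDNA entry of transcript 1, of 1154 bases, had medians of 0.441 in NC 24 h, 0.094 in KD 24 h, 1.60 in NC 72 h and 0 in KD 72 h, and its groups overlapped at both times. Adipocyte markers were abundant in every library. Of 7, 4 were called lower in KD at 24 h (Adipoq, Lipe, Ucp1 and Cidea) and 4 at 72 h (Adipoq, Fabp4, Ucp1 and Cidea), where 12.2% and 12.4% of all genes were called lower, and Cidec was at 0.12 at 72 h on the log2 scale. Their sum, carried mainly by Fabp4, ranged from 36400 to 48400 scaled RPKM in KD 24 h against 49300 to 52200 in NC 24 h, and from 25700 to 35100 in KD 72 h against 35700 to 47800 in NC 72 h. Endothelial markers summed to at most 1.89 scaled RPKM. Macrophage markers summed to 2.57 to 18.2 in KD 24 h against 4.71 to 27.4 in NC 24 h, and to 5.57 to 10.6 in KD 72 h against 7.79 to 29.7 in NC 72 h. Of the 2 of them fitted, Csf1r was called higher at 24 h (log2 fold change 1.21, limma adjusted p = 0.0067) and at 72 h (1.25, limma adjusted p = 0.0029), and Lyz2 lower at 72 h (-3.66, limma adjusted p = 0.00068). Smooth muscle markers summed to 183 to 861 in KD 24 h, 506 to 1480 in NC 24 h, 269 to 373 in KD 72 h and 357 to 1070 in NC 72 h, with Tagln called lower at 72 h (-0.74, limma adjusted p = 0.033). Stromal progenitor markers summed to 402 to 800, 441 to 1040, 698 to 881 and 390 to 1030 in the same groups. Of 7, 5 were fitted at 72 h. Cd34 (2.02, limma adjusted p = 0.0014, a mean of 10.8 reads per library) and Pdgfrb (0.61, limma adjusted p = 0.0068) were called higher, where 10.8% of all genes were. Of the other fitted markers, Pdgfra (-0.29) and Thy1 (-0.03) were below 0 and Ly6a (0.28) above. Whether these differences in cell state take part in the values of CTCF and cohesin genes was not tested, and in bulk RNA fewer cells of a type and less RNA per cell cannot be told apart.

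The members were low to moderate in abundance. In NC 24 h, scaled RPKM was 8.05 ± 0.467 for Smc1a (SD, n = 6), 6.77 ± 0.782 for Rad21 and 5.46 ± 0.515 for Stag2. Smc3 and Ctcf followed at 3.22 ± 0.34 and 3.12 ± 0.409, which did not differ beyond their spread. Stag1, Pds5b, Nipbl and Pds5a lay between 2.22 ± 0.377 and 1.85 ± 0.33 and could not be ordered. In NC 72 h (n = 5) Smc1a and Rad21, at 7.65 ± 1.62 and 7.47 ± 1.7, no longer differed beyond their spread. RPKM divides by transcript length, whereas 3′ libraries give about 1 read site per transcript regardless of length. Without the division by length (RPM scale) in NC 24 h, Smc1a (30.3 ± 1.51) and Stag2 (30.1 ± 3.05) were level, Rad21 followed at 23.2 ± 2.73, Nipbl at 16.8 ± 4.56, and Pds5a was again lowest of the 9 at 7.26 ± 1.28. The order of the middle members thus changed with the scale. Outside NC 72 h replicate 6, the values of Pds5a rest on 11 to 48 reads per library and those of Rad21 on 64 to 273. In that replicate Pds5a had 19 read steps, which may stand for fewer reads.

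**Figure D1:**
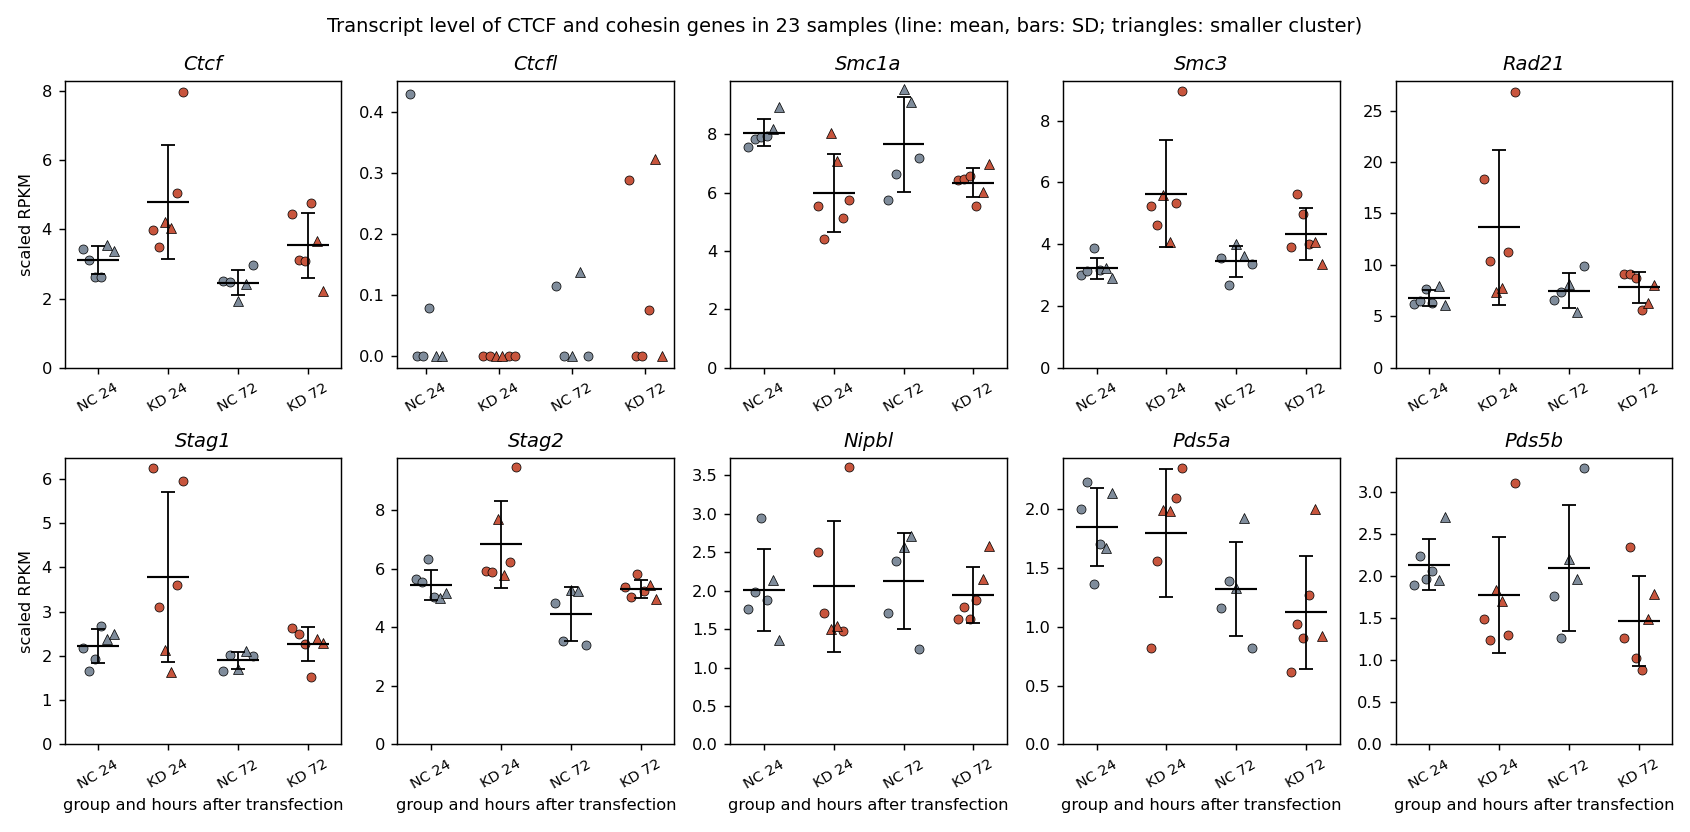
Scaled RPKM of the 10 genes (y axes) in each of the 23 samples, by group and hours after transfection (x axes), with NC in grey and KD in red. Lines are means and bars SD except for Ctcfl, and triangles mark samples of the smaller cluster. Smc3 in KD 24 h lies above every NC 24 h sample, and the highest KD 24 h points of Ctcf, Smc3 and Rad21 are the shallow replicate 6 (7.98, 8.97 and 26.8).

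At 24 h the ring subunits Smc3 and Rad21 were higher in KD than in NC, and no member was called lower. Smc3 rose 1.68-fold and Rad21 1.8-fold. These are 2 of 9 fitted members, all upward, whereas 22.7% of the 11111 genes fitted with 1 entry each were called in either direction and 10.6% were called higher. The share of called members is thus near that of all genes. The median log2 fold change was 0.30 over the 9 members and -0.02 over all genes. A call means an adjusted p-value under 0.05 by limma with Benjamini-Hochberg correction over all 52005 entries fitted.

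Smc3 (GRCm38, chr19:53600398-53645833, plus strand) encodes the ring arm that is acetylated to stabilize cohesin on chromatin. It was 2.92 to 3.87 scaled RPKM in NC 24 h with a median of 3.15. In KD 24 h it ranged from 4.06 to 8.97 with a median of 5.28. All 6 KD samples lay above all 6 NC samples. The share of all genes with such a separation was not computed. The log2 fold change was 0.75 (SE 0.20, 95% confidence interval 0.33 to 1.17, limma adjusted p = 0.015). It stayed between 0.61 and 0.83 when single libraries were left out and was 0.82 within the larger cluster (limma adjusted p = 0.039) and 0.62 within the smaller (limma adjusted p = 0.28, 2 against 2 samples).

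Rad21 (chr15:51962240-51991747, minus strand) encodes the kleisin that closes the ring. It was 6.14 to 7.90 scaled RPKM in NC 24 h with a median of 6.37. In KD 24 h it ranged from 7.36 to 26.8 with a median of 10.8. KD replicates 1 and 6 reached 18.3 and 26.8, replicates 2 and 5 reached 10.4 and 11.3, and replicates 3 and 4 of the smaller cluster stayed at 7.36 and 7.75, inside the NC range. The log2 fold change was 0.85 (SE 0.27, 95% confidence interval 0.26 to 1.43, limma adjusted p = 0.038). It was 1.21 in the larger cluster (limma adjusted p = 0.013) and 0.11 in the smaller (limma adjusted p = 0.83). Without KD replicates 1 and 6, a choice made after seeing the data, it was 0.42 (limma adjusted p = 0.09), and the call was also lost when 1 of KD replicates 1, 2 and 5 or NC replicates 1, 2, 3, 4 and 6 was left out (limma adjusted p = 0.052 to 0.087).

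Smc1a (chrX:152016428-152062694, plus strand), the partner arm of Smc3, had values on the other side. It was 7.57 to 8.92 scaled RPKM in NC 24 h with a median of 7.90, and 4.40 to 8.05 in KD 24 h with a median of 5.64. All 6 KD samples lay at or below the NC mean of 8.05, and only those of the smaller cluster reached over 7. The log2 fold change of -0.45 (SE 0.17, 95% confidence interval -0.80 to -0.10) missed the threshold (limma adjusted p = 0.063). With 1 fit over all 4 groups it passed (limma adjusted p = 0.029). It also passed in the larger cluster (limma adjusted p = 0.04) and without KD replicate 3 (0.027) or 4 (0.045). It missed the threshold with replicate number added to the fit (limma adjusted p = 0.12) and with no filter on reads (0.11).

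Ctcf (chr8:105636568-105682922, plus strand) was 2.62 to 3.56 scaled RPKM in NC 24 h with a median of 3.24, and 3.5 to 7.98 in KD 24 h with a median of 4.12. KD replicate 2 alone fell inside the NC range. The log2 fold change of 0.56 (SE 0.21, 95% confidence interval 0.11 to 1.01) missed the threshold (limma adjusted p = 0.069), and passed it in the fit over 4 groups (limma adjusted p = 0.042). With replicate number added to the fit the limma adjusted p was 0.099, and with no filter on reads 0.14. The log2 fold change was 0.71 in the larger cluster and 0.25 in the smaller. The Ctcf entry with the highest mean RPKM, a cDNA of 1531 bases, gave 0.75 (SE 0.21, limma adjusted p = 0.022).

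The STAG subunits did not pass the test. Stag1 was 1.66 to 2.68 scaled RPKM in NC 24 h with a median of 2.28, and 1.64 to 6.24 in KD 24 h with a median of 3.35. Its log2 fold change was 0.60 (SE 0.31, limma adjusted p = 0.17), 1.08 in the larger cluster (limma adjusted p = 0.025) and -0.36 in the smaller (limma adjusted p = 0.6). Of all members, Stag1 thus had the largest gap between clusters. Stag2 was 5.00 to 6.35 in NC 24 h and 5.79 to 9.49 in KD 24 h, a log2 fold change of 0.30 (SE 0.17, limma adjusted p = 0.2). The loader Nipbl (-0.02, SE 0.26) and the release factors Pds5a (-0.08, SE 0.26) and Pds5b (-0.30, SE 0.23) also missed the threshold. Their 95% confidence intervals reached from -0.58 to 0.55, from -0.63 to 0.46 and from -0.80 to 0.20. Changes within these limits were not excluded.

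**Figure D2:**
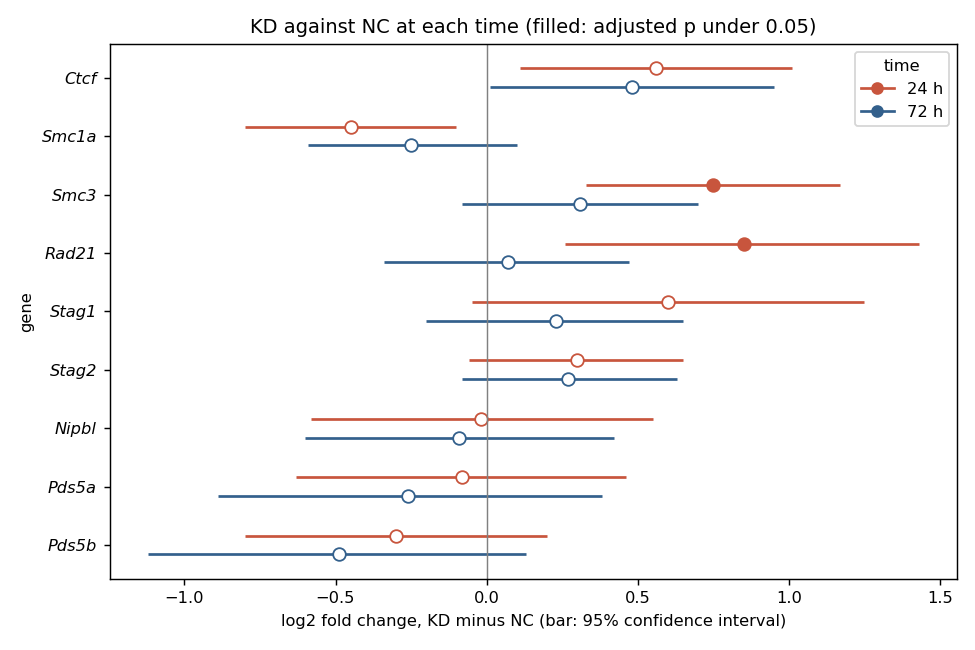
Log2 fold change of KD minus NC (x axis) for the 9 fitted genes (y axis) at 24 h (red) and 72 h (blue), with 95% confidence intervals as bars and filled points for adjusted p under 0.05. Only Smc3 (0.75) and Rad21 (0.85) at 24 h are filled, and Rad21 at 72 h is at 0.07.

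At 72 h no member was called, while 23.2% of 11576 genes were. Ctcf came closest, with an unadjusted p = 0.047 and the 8 others above 0.05 (limma adjusted p = 0.13 for Ctcf). As an alternative, limma voom on the recovered reads called 3, Ctcf (0.60, limma adjusted p = 0.038), Smc3 (0.47, limma adjusted p = 0.044) and Stag2 (0.45, limma adjusted p = 0.038). That fit set depth by the summed reads, without the scaling of the main fit (a trimmed mean of log ratios). It also took every read step of NC 72 h replicate 6 as a read and summed the reads of the merged pair. It called 9697 entries higher and 4671 lower, against 5895 and 6232 in the main fit. Which of these choices moved the calls was not tested. The median log2 fold change was 0.07 over the 9 members and 0.01 over all genes. Ctcf was 2.51, 2.48, 1.93, 2.43 and 2.96 scaled RPKM in the 5 NC 72 h samples, and 2.21 to 4.76 in KD 72 h with a median of 3.38. In KD, 5 of 6 samples lay above the NC mean, and the groups overlapped through KD replicate 6. The log2 fold change was 0.48 (SE 0.22, 95% confidence interval 0.01 to 0.95, limma adjusted p = 0.13).

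Smc3 was 3.57, 2.67, 4.02, 3.61 and 3.37 scaled RPKM in NC 72 h, and 3.36 to 5.64 in KD 72 h with a median of 4.03, a log2 fold change of 0.31 (SE 0.18, limma adjusted p = 0.24). Rad21 was 6.54, 7.32, 8.19, 5.40 and 9.91 in NC 72 h, and 5.58 to 9.15 in KD 72 h with a median of 8.38. Its log2 fold change was 0.07 (SE 0.19, 95% confidence interval -0.34 to 0.47, limma adjusted p = 0.84), and the 2 groups covered nearly the same range. Smc1a was 5.75, 6.65, 9.56, 9.09 and 7.19 in NC 72 h, and 5.55 to 6.99 in KD 72 h with a median of 6.44 (log2 fold change -0.25, SE 0.16, limma adjusted p = 0.29). Here the 2 NC samples of the smaller cluster carried the highest values. Stag2 (0.27, SE 0.17) and Stag1 (0.23, SE 0.20) were above 0, and Nipbl (-0.09, SE 0.24), Pds5a (-0.26, SE 0.30) and Pds5b (-0.49, SE 0.29) below, with adjusted p-values from 0.25 to 0.83. KD 72 h libraries had scaling factors of 1.03 to 1.24 and NC 72 h libraries of 0.921 to 0.973. On the deposited RPKM scale, without these factors, Ctcf (0.70, limma adjusted p = 0.022), Smc3 (0.54, limma adjusted p = 0.041) and Stag2 (0.51, limma adjusted p = 0.045) were called higher at 72 h.

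The difference between the times was tested itself with an interaction term over all samples. No member passed, where 0.291% of 12711 genes did. Rad21 came closest, with a knockdown effect 0.78 lower on the log2 scale at 72 h than at 24 h (log2 difference -0.78, SE 0.35, 95% confidence interval -1.51 to -0.06, unadjusted p = 0.035, limma adjusted p = 0.38). For Smc3 the difference was -0.44 (SE 0.26, limma adjusted p = 0.52), and for the other 7 it lay between -0.37 and 0.20. In the control cells between 24 h and 72 h, no member was called while 9.25% of 11260 genes were. The lowest values were those of Pds5a (-0.48, SE 0.24, limma adjusted p = 0.25), Ctcf (-0.33, SE 0.18, limma adjusted p = 0.3) and Stag2 (-0.31, SE 0.17, limma adjusted p = 0.3). Ctcf, Stag1 and Stag2 were below the NC 24 h mean in all 5 NC 72 h samples. No member reached an unadjusted p under 0.05 in this comparison (limma), the lowest being 0.063 for Pds5a.

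The ratio of 2 genes within a sample does not depend on scaling. The Smc3 to Smc1a ratio was chosen after the values were seen and is given as a description with no test, as are the 6 others computed. SMC3 and SMC1A proteins pair in equal number in cohesin, but their transcripts did not keep 1 ratio between groups. In NC 24 h the ratio of RPKM was 0.327 to 0.491 with a median of 0.398. In KD 24 h it was 0.573 to 1.57 with a median of 0.992, and all 6 KD samples lay above all 6 NC samples. The geometric means, 0.399 and 0.93, were 2.33-fold apart, a log2 difference of 1.22, or 1.43 within the larger cluster and 0.81 within the smaller. At 72 h the ratio was 0.397 to 0.62 in NC and 0.48 to 0.872 in KD, 4 of 6 KD samples lay above all NC samples, and the log2 difference was 0.57.

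The direction held for each of the 35 pairs of the 5 Smc3 and 7 Smc1a entries fitted at both times, with log2 differences of 0.64 to 1.51 at 24 h and 0.11 to 0.80 at 72 h. The groups did not overlap for 13 of these pairs at 24 h and for 0 at 72 h. How often ratios of other genes separate the groups was not computed, so the separation cannot be called particular to these genes. Entries of a gene share reads and are not independent. The ratio of Ctcf to Smc1a also had groups that did not overlap at 24 h, with 0.332 to 0.454 in NC and 0.523 to 1.39 in KD. The Rad21 to Smc1a ratio was 0.688 to 0.969 in NC 24 h and 0.914 to 4.69 in KD 24 h, and the groups overlapped. The ratio of Stag1 to Stag2, the alternative subunits, was 0.299 to 0.534 in NC 24 h and 0.277 to 1.06 in KD 24 h, with a log2 difference of 0.86 in the larger cluster and -0.77 in the smaller. Pds5a to Pds5b was 0.69 to 1.06 and 0.548 to 1.61, and overlapped likewise.

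**Figure D3:**
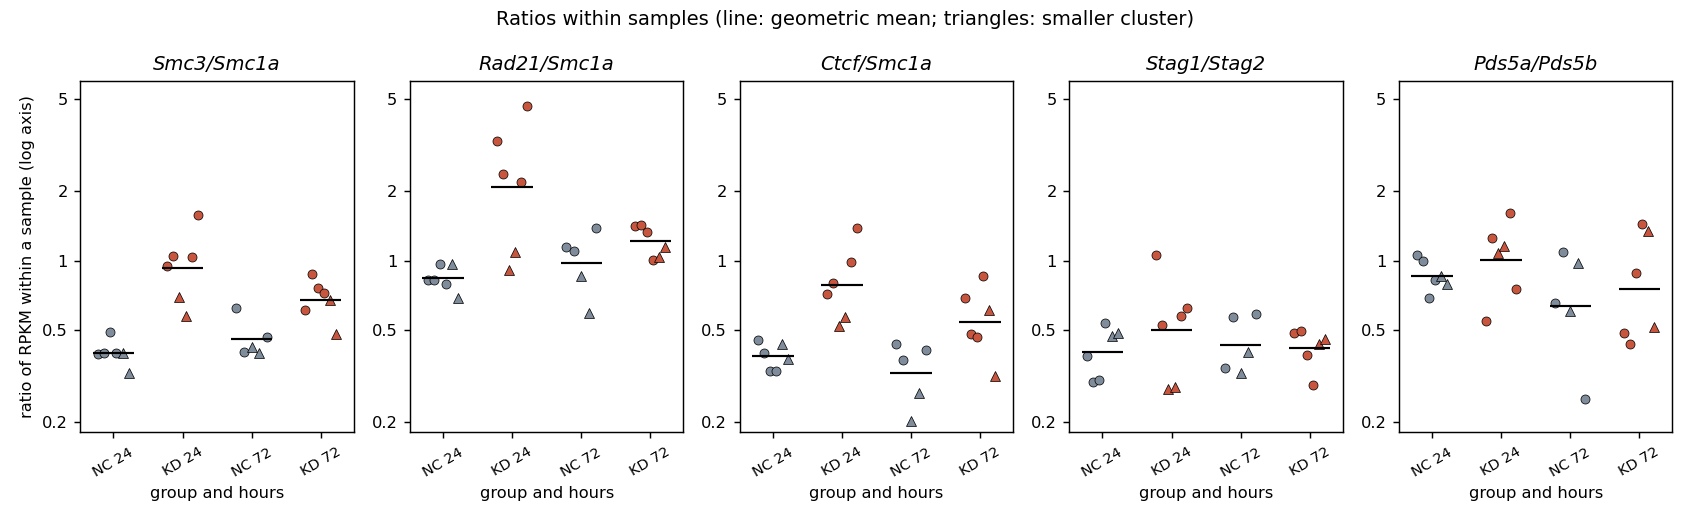
Ratio of RPKM of 2 genes within a sample (y axis, log scale) by group and hours (x axis), with geometric means as lines and triangles for the smaller cluster. Smc3/Smc1a (0.327 to 0.491 in NC 24 h, 0.573 to 1.57 in KD 24 h) and Ctcf/Smc1a separate the groups at 24 h, whereas Stag1/Stag2 and Pds5a/Pds5b overlap.

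The other transcript entries of the members mostly followed the chosen one. Of all 52005 entries fitted at 24 h, 22.6% were called and 10.4% called higher. Entries of a gene share reads, so counts of called entries are not independent results. For Rad21, 8 of 9 fitted entries were called higher, with log2 fold changes of 0.72 to 0.93 over all 9. For Smc3, 2 of 5 were called higher (0.26 to 0.88). For Ctcf, 1 of 6 was called higher (0.28 to 0.75). All 7 entries of Smc1a were below 0 (-0.63 to -0.38) and all 12 of Pds5b (-0.37 to -0.10), and all 9 of Stag1 were above 0 (0.60 to 0.82), although no entry of these 3 genes passed the test. Nipbl entries disagreed in sign, from -0.13 to 0.45 at 24 h and from -1.01 to 0.30 at 72 h. The Nipbl entry at -1.01 is a cDNA of 2517 bases (SE 0.39, limma adjusted p = 0.077). At 72 h 1 Rad21 entry, a cDNA of 2947 bases, was at 0.75 (SE 0.27, limma adjusted p = 0.059). The chosen Rad21 entry was at 0.07.

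Ctcfl is the member whose gene lies against the targeted RNA. In GENCODE M21 (GRCm38) Ctcfl spans chr2:173093609-173119525 on the minus strand and Ctcflos spans chr2:173110818-173133204 on the plus strand, so that the 2 genes overlap by 8708 bases. The handling of strand was not given in the sources used here, so reads in the overlap cannot be assigned to either gene with certainty. The overlap lies at the start of both genes, whereas these libraries were sequenced from the 3′ ends of transcripts. How many reads fell in the overlap was not computed. The RefSeq entry of Ctcfl (3193 bases) had 17 reads in all 24 libraries, against 1261 read steps for Ctcf. No read was seen in 17 libraries. In NC 24 h, replicate 1 had 4 reads and replicate 4 had 1. In KD 24 h all 6 libraries had 0. In NC 72 h, replicate 1 had 1 read and replicate 5 had 2, and in KD 72 h replicates 1 and 5 had 4 each and replicate 4 had 1.

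At this depth a count of 0 in 1 library allows up to 0.173 to 0.675 RPKM of Ctcfl (3 reads), depending on the library. Over the 24522031 reads of KD 24 h, a count of 0 allows up to 0.0383 RPKM (3 reads). Per 10000000 reads, the rates were 1.93 in NC 24 h (exact Poisson 95% interval 0.626 to 4.50) and 0 in KD 24 h. They were 1.65 in NC 72 h (0.34 to 4.81) and 3.99 in KD 72 h (1.82 to 7.57), a ratio of 2.42 whose exact binomial interval of 0.604 to 13.9 includes no change. These intervals cover counting error only, and the depth of NC 72 h counts the merged pair once and counts 2 read steps of replicate 6 as 1 read. Two-sided exact permutation tests of RPKM gave p = 0.45 at 24 h and p = 0.48 at 72 h, both 0.48 after adjustment over the 2 times. No difference in Ctcfl was detectable at either time. Of the germ-line cohesin genes, all 4 in the list were under the filter, and their summed level was at most 0.573 scaled RPKM.

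Regulators of cohesin include genes of loading, release and cleavage. Wapl (listed as Wapal), which opens the ring for release, rose from 4.72 ± 0.466 to 10.6 ± 4.04 scaled RPKM at 24 h (log2 fold change 1.08, SE 0.22, limma adjusted p = 0.0044) and from 5.30 ± 1.13 to 7.91 ± 0.305 at 72 h (0.59, SE 0.16, limma adjusted p = 0.015). Mau2, which forms the loader with NIPBL, was 11.8 ± 0.92 in NC and 7.68 ± 3.51 in KD at 24 h (-0.81, SE 0.35, limma adjusted p = 0.1). At 72 h it fell from 11.4 ± 1.71 to 7.45 ± 1.04 (-0.61, SE 0.15, limma adjusted p = 0.01).

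Pttg1 (securin, the inhibitor of separase) rose from 115 ± 9.78 to 177 ± 45.1 at 24 h (limma adjusted p = 0.014), and Sgol2, a shugoshin that protects centromeric cohesin, from 1.19 ± 0.432 to 2.33 ± 0.692 (limma adjusted p = 0.03). Pttg1 also fell in the control cells from 24 h to 72 h, to 49.3 ± 23.1 (log2 fold change -1.33, SE 0.22, limma adjusted p = 0.0016). Of 10 proliferation genes 9 were fitted at 24 h and 10 at 72 h, and limma called 0 at either time. At 24 h 6 were above 0 and 3 below (Ccnb1 -0.32, Birc5 -0.16 and Plk1 -0.04). An unadjusted p under 0.05 by limma was reached by 3 at 24 h and 0 at 72 h. The 3 were Mki67 (0.72), Ccna2 (0.45) and Aurkb (0.48), named after their values were seen. The share of all genes under that unadjusted limit was not computed.

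Among 15 genes of condensin and the SMC5/6 complex, the relatives of cohesin, 2 were called higher and 1 lower at each time, with medians of 0.08 and 0.10. Of all genes, 10.6% were called higher and 12.2% lower at 24 h, and 10.8% and 12.4% at 72 h, so these counts are near the shares over all genes. Nsmce2, the SUMO ligase of SMC5/6, fell from 29.2 ± 2.88 to 7.31 ± 3.44 scaled RPKM at 24 h (log2 fold change -2.12, SE 0.27, limma adjusted p = 0.00021) and from 32.0 ± 2.56 to 11.4 ± 4.31 at 72 h (-1.55, SE 0.20, limma adjusted p = 0.00013). Smc5, an arm of that ring, rose from 1.84 ± 0.409 to 3.16 ± 0.668 at 24 h (0.75, SE 0.22, limma adjusted p = 0.025) and by 0.73 at 72 h (SE 0.21, limma adjusted p = 0.022). Ndnl2 (NSMCE3) was called higher at 24 h (1.32, SE 0.38, limma adjusted p = 0.024) and Nsmce4a at 72 h (0.84, SE 0.21, limma adjusted p = 0.012). Of 10 CTCF partners, 2 of 9 fitted were higher at 24 h, the zinc finger factors Vezf1 (1.13, SE 0.32, limma adjusted p = 0.021) and Yy1 (0.73, SE 0.24, limma adjusted p = 0.039). At 72 h Vezf1 was higher (0.68, SE 0.19, limma adjusted p = 0.023) and Parp1 lower (-0.81, SE 0.22, limma adjusted p = 0.018). These counts stand beside the same 10.6% called higher at 24 h and 10.8% higher and 12.4% lower at 72 h.

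**Figure D4:**
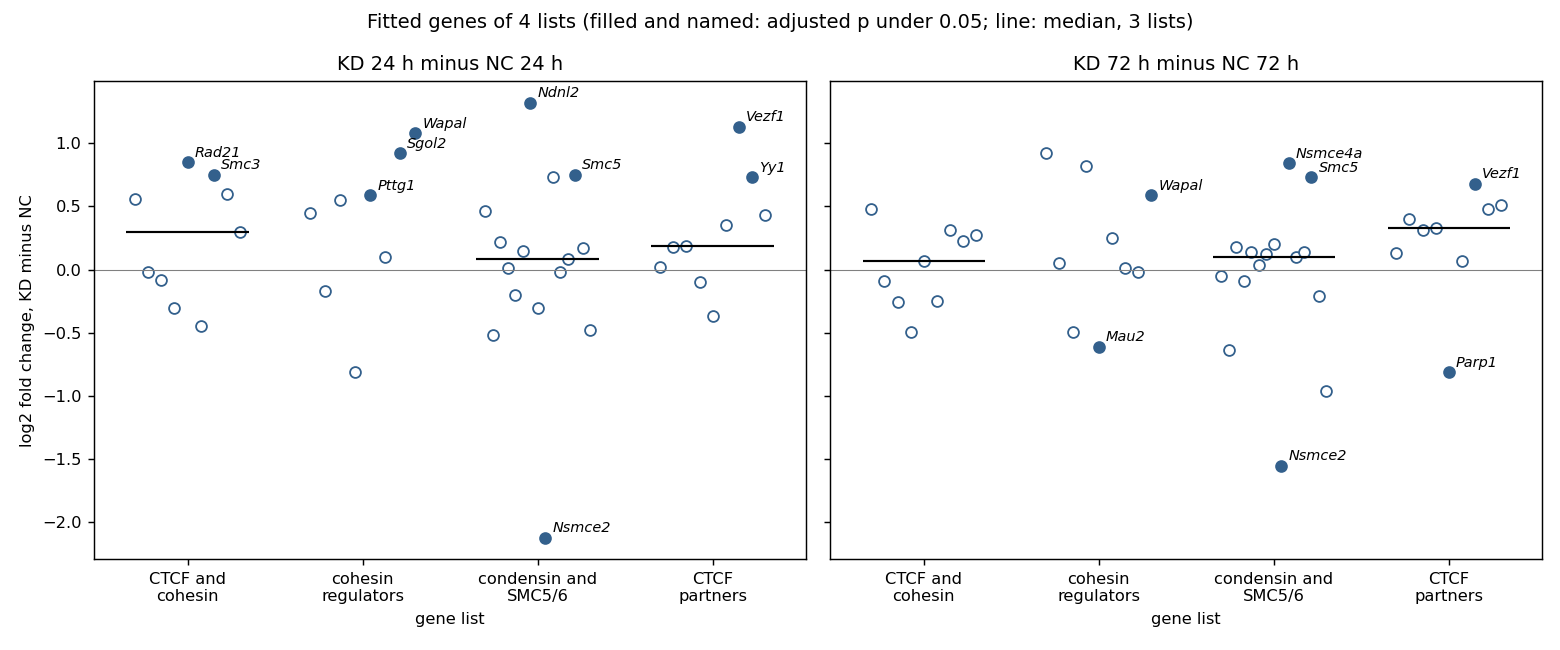
Log2 fold change of KD minus NC (y axis) for the fitted genes reported here from 4 lists (x axis) at 24 h (left) and 72 h (right), with medians as lines for 3 of the lists and filled, named points for adjusted p under 0.05. Wapal and Smc5 are filled above 0 and Nsmce2 below 0 (-2.12 and -1.55) at both times.

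The members differ in genomic span, from 29.5 kb for Rad21 to 361.6 kb for Stag1. Long genes as a class were lower in KD among the fitted genes with a known span. These were 83.3% of the fitted genes at 24 h and 83.9% at 72 h. The median log2 fold change at 24 h was 0.07 for 5455 genes under 30 kb, -0.06 for 2698 genes of 30 to 100 kb and -0.51 for 1104 genes over 100 kb, of which 36.8% were called lower. At 72 h the medians were 0.09, 0.01 and -0.30, and 25.8% of the longest class were called lower. The 4 members over 100 kb, Stag1, Stag2, Nipbl and Pds5b, all lay above the median of their class at 24 h (0.60, 0.30, -0.02 and -0.30). At 72 h 3 of the 4 did, and Pds5b (-0.49) lay below. Of the class of 30 to 100 kb, Smc1a (46.3 kb; -0.45 and -0.25) and Pds5a (92.6 kb; -0.08 and -0.26) lay below the median at both times, whereas Smc3 (45.4 kb) and Ctcf (46.4 kb) lay above. These positions were not tested.

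**Figure D5:**
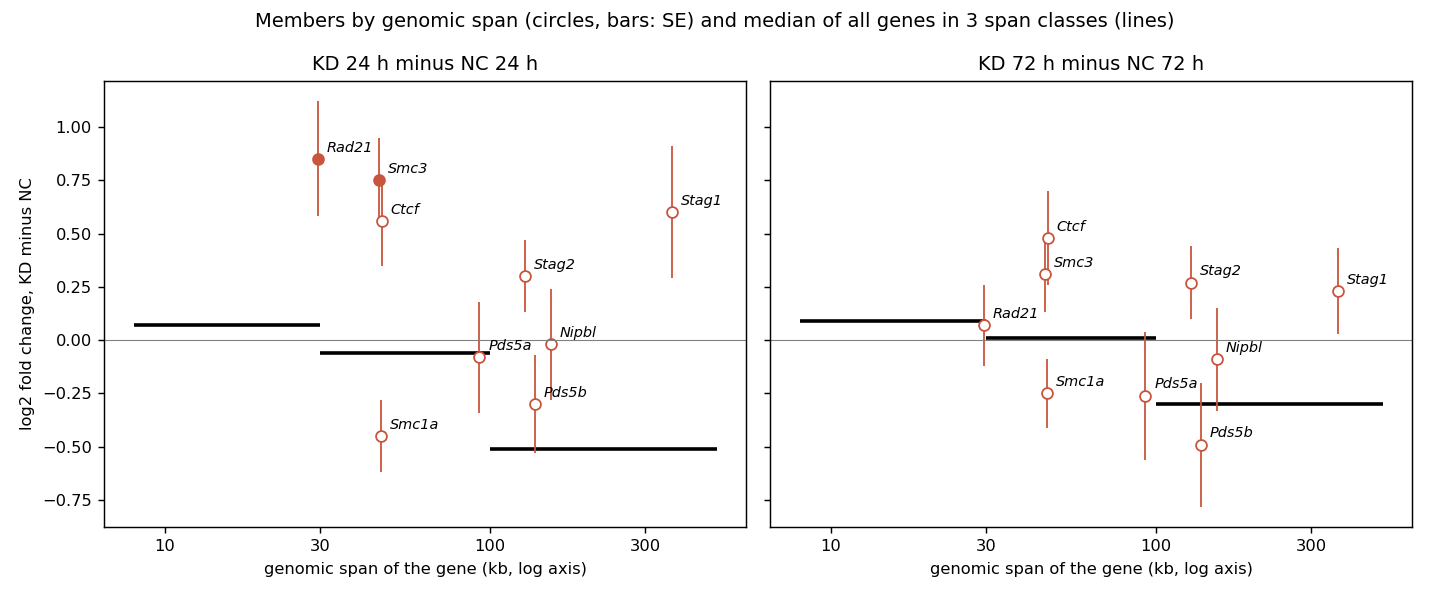
Log2 fold change of KD minus NC (y axis, bars SE) against genomic span in kb (x axis, log scale) for the 9 fitted genes at 24 h (left) and 72 h (right), with the median of all genes in each of 3 span classes as black lines. At 24 h all 4 genes over 100 kb lie above their class median of -0.51.

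Promoters were examined for motifs of 5 factors chosen with the values known, in RefSeq sequences of GRCm38.p6 from 250 bases before to 50 after the start. Sequences were at hand for 6 members, Ctcf, Smc1a, Smc3, Stag1, Pds5a and Pds5b. The YY1 motif GCCATNTT, searched on both strands, was in 4 of the 6, against 6.05% of all 32851 promoters and 9.1% of those of fitted genes. Its first base lies at position 11 in Ctcf, 1 in Smc3, -37 in Pds5b and -202 in Stag1, counted from the start as 1. The windows of 30 bases around these matches are shown 5′ to 3′ on the gene's strand with the match in capitals, since this motif recurred in most of the member promoters at hand. RefSeq start sites are used here and differ from the GENCODE starts given for whole genes.

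Smc3, chr19:53600385-53600414: ccgcggccgccGCCATTTTgtttggccaca
Ctcf, chr8:105636537-105636566: accgcgccgccGCCATTTTgtgtccgagcc
Pds5b, chr5:150673779-150673808: ctgctcttggcGCCATTTTgaagcggagag
Stag1, chr9:100643235-100643264: gagaagctctaAAAATGGCgggcggcaacc

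The matches of Smc3 and Ctcf lie just after the start, and that of Stag1 is on the other strand. A match describes letters in the window and is not a binding site, and Pds5b, which holds one too, had a log2 fold change of -0.30. A CTCF core motif, searched on both strands, was in Pds5b alone, against 8.61% of all promoters and 13% of those of fitted genes. The NRF1 palindrome was in Stag1 and Pds5b (4.6% of all, 10.9% of those of fitted genes), the NF-Y motif CCAAT in Smc1a, Stag1 and Pds5b (37.4% and 38.2%) and the SP1 motif GGGCGG in all 6 (35.7%, or 64.4% of those of fitted genes), each on either strand.

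The genes whose pattern over the 23 samples was most like that of Ctcf, by Pearson's r of log2 scaled RPKM over 12711 genes, were Nus1 (0.84), Ddx19a (0.83), Ccdc23 (0.82), Nup62 (0.81) and Serbp1 (0.80). Those most like the mean of the 9 fitted members were Slc25a3 (0.89), Rragc (0.87), Marc2 (0.86), Rpl39 (0.85) and Luzp1 (0.85). These correlations are across samples that share groups, clusters and depth, and are given as a description.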

How the data were processed

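According to the labels and the methods of the study, RNA was barcoded with oligo-dT primers, tagmented and sequenced at the 3′ ends. The authors mapped reads with the Genomatix suite and deposited RPKM for 168326 RefSeq, Ensembl and GenBank entries. The version, genome build and strand handling for these libraries were not given in the sources used here. Every column was used. Depth and reads were recovered from the RPKM steps (95.1% to 95.64% of values of up to 20 reads lay within 0.1 of a whole number). In NC 72 h replicate 6 only 14.97% of low read numbers were odd, so 2 steps may stand for 1 read there, which was used for the limits.

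An entry was fitted if its RPKM equalled 10 reads at median depth in at least n samples, n being that of the smaller group, and it had 15 reads in total, or had 50 RPKM in every sample where no length could be recovered. RPKM were divided by a trimmed mean of log ratios (scaled RPKM), and log2(scaled RPKM + 0.1) was fitted per time point with limma 3.58.1 (lmFit, eBayes with trend) in R 4.3.3, with Benjamini-Hochberg adjustment. Fold changes on this scale understate low genes. The table holds no counts, so the count test of the study was not run. Gene positions are from GENCODE M21. All 10 members, Mau2, Wapl and up to 3 called genes of each list with the smallest p are named, and the 5 most correlated genes. Members, lists and tests were chosen with earlier results of these data known. Exact permutation tests used scipy 1.17.1. A gene of the cohesin regulators is not reported here and no counts over that list are given.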

Additional observations from a re-analysis of the deposited data

Results flagged for a closer look

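In 36 groups of samples (9 genes by 4 groups), 5 held a sample further from its neighbour than Dixon's 95% value allows, where chance flags about 1 in 20. In KD 24 h, replicate 6, the shallowest library, was high for Ctcf (7.98 scaled RPKM), Smc3 (8.97) and Pds5b (3.11). In NC 24 h, replicate 3 was high for Smc3 (3.87). In KD 72 h, replicate 4 was low for Stag1 (1.52). Without KD 24 h replicates 1 and 6, an alternative added after seeing the data, Smc3 stayed called at 24 h and Rad21 did not.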

How the results depend on the processing

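The choice of scaling, filter and libraries decided which members were called. At 24 h, 2 members were called. Calls numbered 1 with no filter, 1 without KD replicates 1 and 6 (added after seeing the data), 4 in the fit over 4 groups, 4 in the larger cluster and 0 in the smaller, and 1 to 4 when single libraries were left out. Over all entries, 11760 were called, against 14813, 13225 and 1544 in those 3 fits and 8980 to 14146 when single libraries were left out. At 72 h, 0 were called, also when single libraries were left out, against 3 on the deposited scale and 3 with voom. Neither of these 2 fits used the trimmed mean scaling. On the deposited scale 13166 entries were higher and 3102 lower at 72 h, against 5895 and 6232 after scaling.

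Replicate numbers did not pair the samples (same-number correlations from -0.237 to 0.196). The replicate block left 1 member called at 24 h, Smc3 (limma adjusted p = 0.044) and not Rad21 (limma adjusted p = 0.062), and changed no other member call. It left 32 of 133 entries called in the interaction and 2869 of 4838 in the controls over time.

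Some signs changed, mostly of values near 0. At 24 h Nipbl was 0.06 on the deposited scale, 0.05 in the larger cluster, 0.22 for its entry with the highest mean RPKM, 0.10 as the median over entries, and -0.19 to 0.10 when single libraries were left out. Pds5a was 0.07 in the smaller cluster, 0.05 without KD replicates 1 and 6, 0.13 for its entry with the highest mean RPKM, and -0.17 to 0.11 when single libraries were left out. Stag1, at 0.60, was -0.36 in the smaller cluster. At 72 h Nipbl was 0.13 on the deposited scale, 0.04 with voom, 0.00 in the larger cluster and -0.26 to 0.00 when single libraries were left out. In the smaller cluster at 72 h Smc3, at 0.31, was -0.04 and Stag2, at 0.27, was -0.01. Rad21 at 72 h was -0.02 for its entry with the highest mean RPKM and -0.04 to 0.17 when single libraries were left out. On the deposited scale the interaction was 0.08 for Ctcf, 0.13 for Stag2 and 0.08 for Nipbl. The cause was not tested. The Ctcfl difference stayed between -0.0961 and -0.0149 RPKM at 24 h and between 0.0319 and 0.106 at 72 h when single libraries were left out, and depth limits both.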
